A study of Papio hamadryas with 11 samples.

Results

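The 2 mature arms of miR-126, hsa-miR-126-5p and hsa-miR-126-3p, were followed in small RNA libraries made from fetal liver of the baboon Papio hamadryas. The 11 samples were from 0.9 of gestation. The arms were taken by name from the known-miRNA table, where each stands on 1 precursor row. They are 2 of 1921 mature names, of which 645 had reads. The control group held 6 fetuses of control mothers (3 female and 3 male) and the obese group 5 fetuses of obese mothers (3 female and 2 male). The labels name no further treatment, and they do not say how maternal obesity was brought about or defined. They list separate samples without numbering the animals, so each sample is counted here as 1 fetus. The p-values here rest on the spread between samples. Each library is called by its mother's group and its replicate number.

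miR-126 is encoded in an intron of EGFL7, a gene of endothelial cells, and it is the miRNA most closely tied to the endothelium of blood vessels. In mouse and zebrafish the 3p arm maintains vascular integrity by repressing SPRED1 and PIK3R2, inhibitors of the signalling that follows VEGF and FGF. The 5p arm represses the Notch ligand DLK1 in mouse endothelial cells and so sustains their proliferation. In the liver the sinusoids, a part of its vessels, are lined by sinusoidal endothelium. Fetal liver also holds blood progenitors and megakaryocytes, which carry miR-126 as well. The reads came from whole tissue, so more cells of a type and more RNA per cell cannot be told apart. EGFL7 itself is a messenger RNA and was not measured in these libraries.

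Reads on known miRNAs ran from 247288 to 319919 per control library and from 660569 to 767137 per library of the obese group. The library numbers in the labels, 55 to 60 and 67 to 71, also separate the groups. Depth, any library batch and maternal obesity therefore cannot be told apart, and the labels name no batch within which the groups could be compared.

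Both arms had many reads in every liver, with those of the 5p arm in large excess. How fully each sequence was captured in the libraries was not measured, so ratios of reads need not be ratios of molecules. miR-126-5p had 2180 to 3392 reads in controls and 7098 to 11561 in the obese group. miR-126-3p had 328 to 512 and 957 to 1401 reads. Together the arms took between 0.868% (control replicate 2) and 1.81% (replicate 2 of the obese group) of a library's known-miRNA reads. miR-126-5p ranked between 13 and 21 among all miRNAs by reads in single libraries, and miR-126-3p between 43 and 52. By mean level over the 11 livers, in CPM (reads scaled to a common library size, here with TMM factors), miR-126-5p stood 16th of the tested miRNAs at 11293 CPM. Its nearest neighbours were miR-30e-5p above it and the erythroid miR-486-5p, at 11191 CPM, below it. miR-126-3p stood 47th at 1644 CPM, beside miR-125b-5p and miR-654-3p. The gaps to these neighbours were smaller than the SD of the arm itself in either maternal group.

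The level of miR-126-5p was higher in livers of fetuses of obese mothers. In controls it stood at 9496, 8031, 10985, 12489, 9003 and 7975 CPM in replicates 1 to 6. In the obese group it stood at 14986, 15249, 12649, 12216 and 11141 CPM in replicates 1 to 5. All 5 libraries of the obese group lay above the control mean and 3 lay above every control. The groups overlapped through control replicate 4 alone, a male, which was the only control at or above the lowest library of the obese group. Without it controls ran from 7975 to 10985 CPM, below all 5 libraries of the obese group. That separation follows from leaving out the 1 control that overlapped, so it adds no support. The means were 9663 ± 1773 CPM (SD, n = 6) and 13248 ± 1795 CPM (SD, n = 5), a ratio of means of 1.37. In edgeR's quasi-likelihood test over all tested miRNAs, with Benjamini-Hochberg adjustment and a threshold of 0.05, the log2 difference was 0.46 (SE 0.14, 95% interval 0.16 to 0.75, adjusted p = 0.0476).

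The level of miR-126-3p did not pass the same test. It stood at 1566, 1444, 1702, 1801, 1171 and 1658 CPM in control replicates 1 to 6. In the obese group it stood at 2005, 1848, 1662, 1721 and 1502 CPM in replicates 1 to 5. The groups overlapped widely, with 4 of 6 controls at or above the lowest library of the obese group and 2 of 5 libraries of that group above every control. The means were 1557 ± 225 CPM (SD, n = 6) and 1748 ± 190 CPM (SD, n = 5). The log2 difference was 0.17 (SE 0.13, 95% interval -0.11 to 0.44, edgeR adjusted p = 0.463). That interval holds 0 and overlaps the interval of the 5p arm (0.16 to 0.75). Whether the arms differed in their response was tested on their ratio, below.

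**Figure D1:**
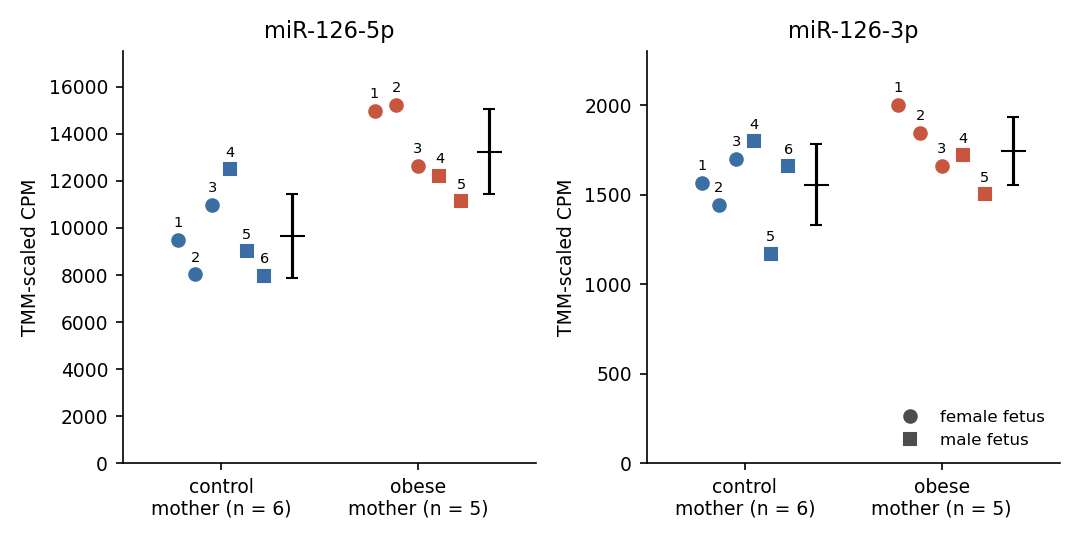
TMM-scaled CPM (linear axes from 0) of miR-126-5p, left, and miR-126-3p, right, in each library, with replicate numbers, controls in blue and the obese group in red, circles for female and squares for male fetuses, and the mean ± SD of each group in black. For the 5p arm only control replicate 4, at 12489 CPM, reaches into the range of the obese group (11141 to 15249 CPM), while for the 3p arm the groups lie over each other.

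Of the 2 arms, 1 was past the threshold, where 24 of the tested miRNAs were called (11%), 10 of them higher (4.59%). miR-126-5p ranked 23rd by p, close to the edge of the called miRNAs, and 19th by size of rise. No overlap between groups with the obese group higher was seen in 7 miRNAs (3.21%), and neither arm was among them. The median log2 difference over all tested was -0.05.

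The call on miR-126-5p was close to the threshold and moved with the libraries and the model, while its size moved little. When each of the 11 libraries was left out in turn, the log2 difference ran from 0.40 to 0.54 and the unadjusted edgeR p from 0.000551 to 0.0153. The adjusted p ran from 0.00785 to 0.112 and passed in 3 of the 11 fits, those without control replicate 4 and without replicate 4 or 5 of the obese group. Leaving out a control also let more miRNAs through the expression filter (241 to 245). That range includes the fit without control replicate 4, which passed. Fits without replicate 1, 2 or 3 of the obese group kept every control and did not pass. Whether the number of tests had a part in the lost calls was not tested. The call was also lost with fetal sex as a covariate (log2 0.44, adjusted p = 0.0689) and with libraries scaled to total counts (log2 0.45, adjusted p = 0.0920). Thinning every library to 247288 reads, the smallest total, gave a log2 difference of 0.49 (adjusted p = 0.0339).

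**Figure D2:**
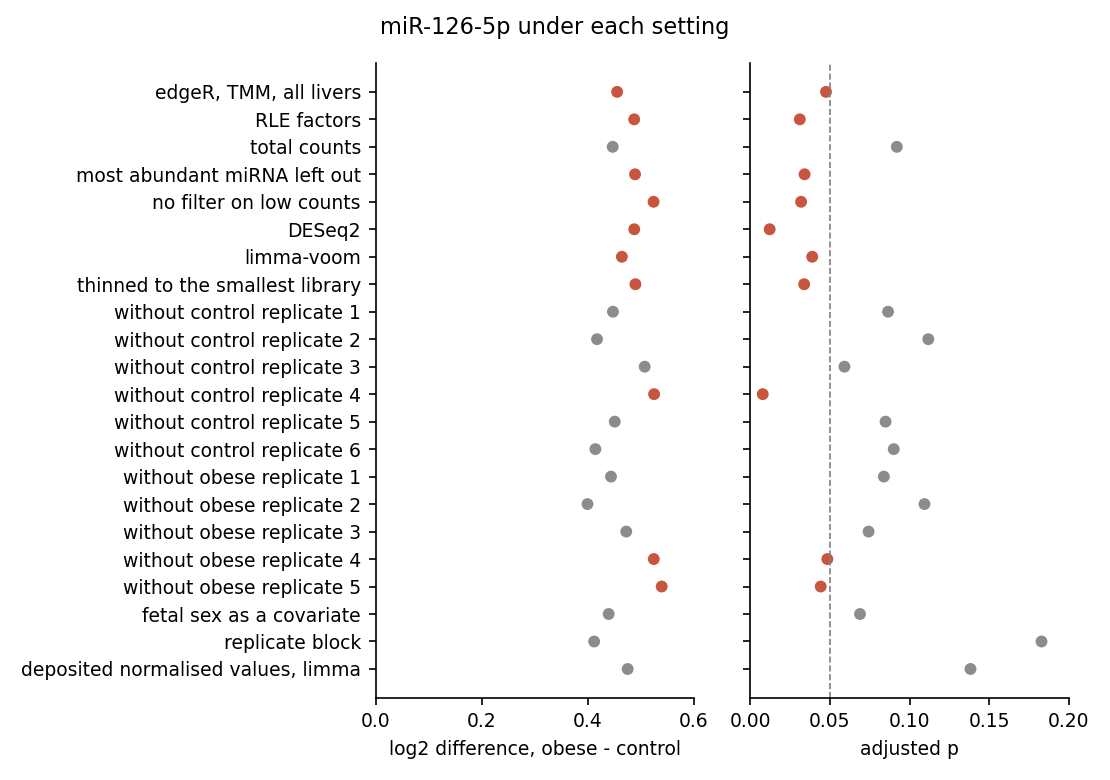
The log2 difference of miR-126-5p between groups, left, and its adjusted p, right, under each setting (rows), with red points below the threshold of 0.05 (dashed line) and grey points above it. Every estimate lies between 0.40 and 0.54, and the adjusted p falls on both sides of the threshold.

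The arms counted as 1 feature were likewise higher. With the rows of the 2 arms replaced by their sum, the log2 difference was 0.45 (SE 0.14, 95% interval 0.16 to 0.74, edgeR adjusted p = 0.0452 over 217 features). This sum is mostly 5p reads. It passed in 2 of the 11 fits that left out 1 library, those without control replicate 4 and without replicate 5 of the obese group, with log2 differences between 0.37 and 0.50.

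The ratio of the arms within a library does not depend on scaling. The 5p arm gave 6.06, 5.56, 6.46, 6.94, 7.69 and 4.81 reads per 3p read in control replicates 1 to 6. In the obese group it gave 7.48, 8.25, 7.61, 7.10 and 7.42 reads per 3p read in replicates 1 to 5. Controls thus spanned a wider range than the obese group, from replicate 6 to replicate 5, and only control replicate 5 lay within or above the range of the obese group. The 95% Wilson intervals, which cover counting error only, were 4.37 to 5.29 in control replicate 6 and 6.85 to 8.62 in control replicate 5. Expressed as a share of the locus, 5p reads made up 86.0% ± 2.02 in controls (SD, n = 6) and 88.3% ± 0.563 in the obese group (SD, n = 5).

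**Figure D3:**
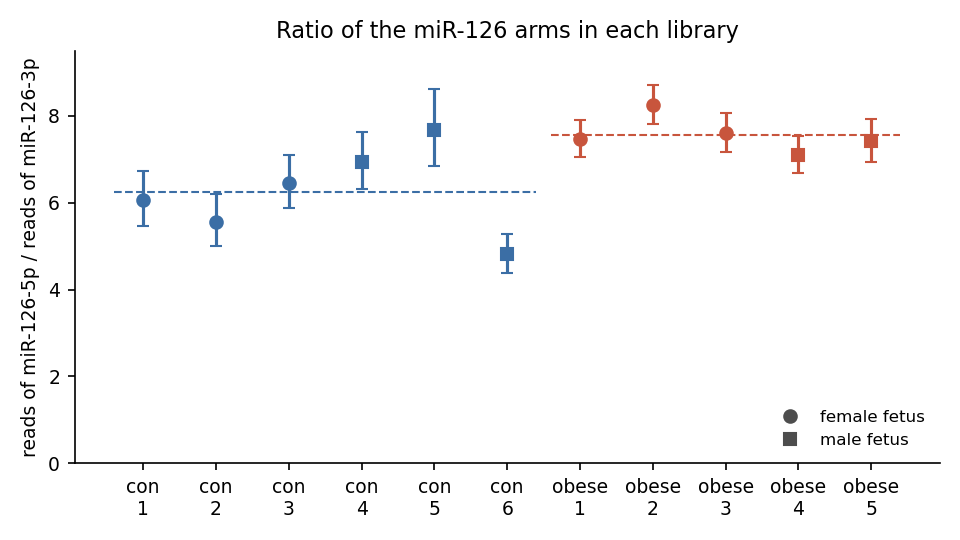
Reads of miR-126-5p per read of miR-126-3p (linear axis from 0) in each library (con, control, blue; obese group, red), with 95% Wilson intervals for counting error, group means as dashed lines, circles for female and squares for male fetuses. The obese group lies between 7.10 and 8.25, and controls between 4.81 (replicate 6) and 7.69 (replicate 5).

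Whether the arms differed in their response was tested on the log2 ratio of 5p to 3p reads with limma, over 41 loci with both arms tested. The mean log2 ratio of miR-126 was 2.63 ± 0.24 in controls (SD, n = 6) and 2.92 ± 0.08 in the obese group (SD, n = 5). The difference was 0.29 (SE 0.15, 95% interval -0.03 to 0.62, limma adjusted p = 0.286), so a call on 5p and none on 3p did not amount to a difference between the arms in this test. A two-sided exact permutation test of miR-126 alone over all splits of the livers gave p = 0.0303, unadjusted. The ratio was above the control mean in 5 of 5 libraries of the obese group. Of the 41 loci, 1 was called (2.44%). That locus was miR-145, a smooth muscle miRNA, whose log2 ratio was 2.56 ± 0.31 and 1.06 ± 0.27 in the groups (difference -1.50, limma adjusted p = 9.78e-05).

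Among the 41 loci, ordered by reads from the most 5p-rich to the most 3p-rich, miR-126 stood 15th. The ratio of miR-17 and miR-1307 lay just above it (log2 2.88 and 2.95 over the 11 livers, against 2.76 for miR-126), and those of miR-425 and let-7d just below (2.64 and 2.52). In controls the ratio of miR-126 had the 7th smallest SD of the 41. Its arms had 63610 and 8869 reads over all libraries, where those of miR-17 had 1637 and 229, so its counting error is smaller.

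**Figure D4:**
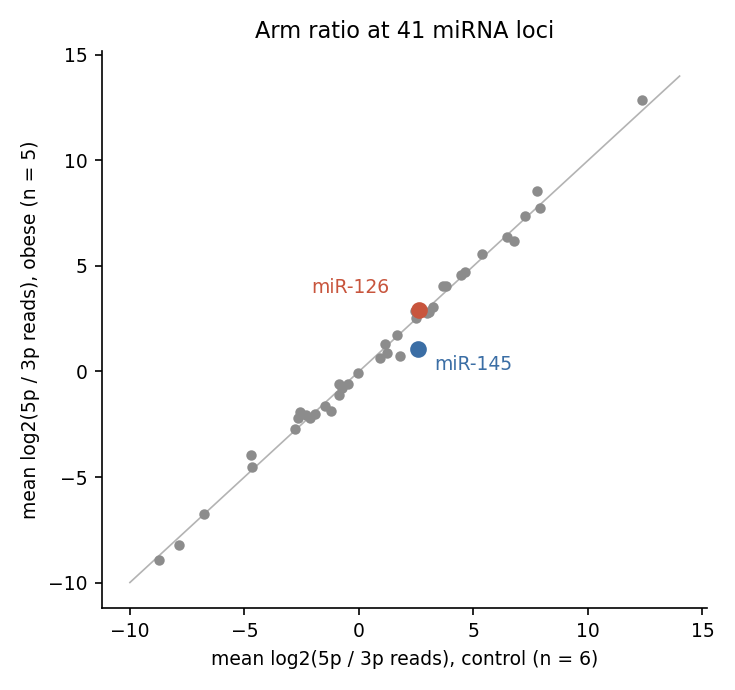
Mean log2 ratio of 5p to 3p reads in controls (x axis, n = 6) and in the obese group (y axis, n = 5) at 41 miRNA loci (points), with the line of equal values. miR-126 (red, 2.63 and 2.92) lies close to the line and miR-145 (blue, 2.56 and 1.06) below it.

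The arms varied together over the livers of both groups, on TMM-scaled log2 CPM. Over the 11 livers Pearson's r was 0.706 (permutation test, p = 0.0113) and Spearman's rho 0.791 (permutation test, p = 0.00522), the only relation across livers that was tested. The permutations moved livers across the maternal groups, so these p-values also take in the group difference of miR-126-5p. The relation within groups was not tested. Without the 2 livers farthest from the median of miR-126-5p, control replicates 2 and 6, r was 0.852. Within controls r was 0.509 (n = 6), and the 5 libraries of the obese group were too few for a correlation of their own. Both arms share a library's depth and scaling factor. For miR-126-5p, with each maternal group's mean subtracted, r with the other arm was 0.633 over the 11 livers, which placed miR-126-3p 14th among the tested miRNAs. The 5 most like it were miR-29b-3p (r = 0.736), miR-337-3p (0.730), miR-141-3p (0.726), miR-140-3p (0.726) and miR-93-5p (0.725). For miR-126-3p they were miR-30a-3p (0.788), miR-370 (0.773), miR-93-5p (0.730), miR-656 (0.720) and miR-574-3p (0.707). None of these 9 miRNAs passed the threshold between the groups. The values are close to each other and were picked as the highest of 217, so they describe these libraries only.

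By fetal sex and maternal group, mean miR-126-5p was highest in females of the obese group (14295 ± 1431 CPM, SD, n = 3), followed by males of the obese group (11679 ± 760 CPM, n = 2), control males (9822 ± 2366 CPM, n = 3) and control females (9504 ± 1477 CPM, n = 3). Females of the 2 groups did not overlap, at 8031 to 10985 and 12649 to 15249 CPM. Males overlapped, at 7975 to 12489 and 11141 to 12216 CPM, and control males and control females differed by less than their SDs. For miR-126-3p the order was the same for the obese group, at 1838 ± 172 CPM in females and a mean of 1612 CPM in males (1502 and 1721 CPM), with control females at 1571 ± 129 CPM and control males at 1543 ± 330 CPM. The groups after the females of the obese group differed by less than the SD of control males. In reads of 5p per read of 3p, females of the obese group stood at 7.78 ± 0.415 (n = 3), its males at 7.26 ± 0.226 (n = 2), control males at 6.48 ± 1.49 (n = 3) and control females at 6.03 ± 0.448 (n = 3).

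In a model with a mean for each sex and maternal group, miR-126-5p did not pass in females (log2 0.59, SE 0.18, 95% interval 0.19 to 0.99, edgeR adjusted p = 0.0811), where 13 miRNAs were called (5.96%). It passed in females when that sex was fitted alone (log2 0.62, adjusted p = 0.0340) and in DESeq2 (log2 0.63, adjusted p = 0.0355). In males the log2 difference was 0.25 (95% interval -0.19 to 0.69, edgeR adjusted p = 0.513), with 9 miRNAs called (4.13%). That male value was 0.09 with total counts, 0.43 without control replicate 4 and 0.14 without control replicate 6, none past the threshold. The difference between these effects, male minus female, was -0.34 (95% interval -0.93 to 0.26, edgeR adjusted p = 0.670), so the sexes were not shown to differ. It was -0.62 with total counts (adjusted p = 0.320), -0.15 without control replicate 4 and -0.20 without control replicate 2. miR-126-3p had log2 differences of 0.23 in females (edgeR adjusted p = 0.605) and 0.06 in males (edgeR adjusted p = 0.936). The male value turned to -0.09 with total counts and to -0.07 without control replicate 5, a male. Its male minus female difference was -0.16 (95% interval -0.75 to 0.42, edgeR adjusted p = 0.896), and it was -0.44 with total counts and between -0.30 and -0.07 with 1 library left out.

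**Figure D5:**
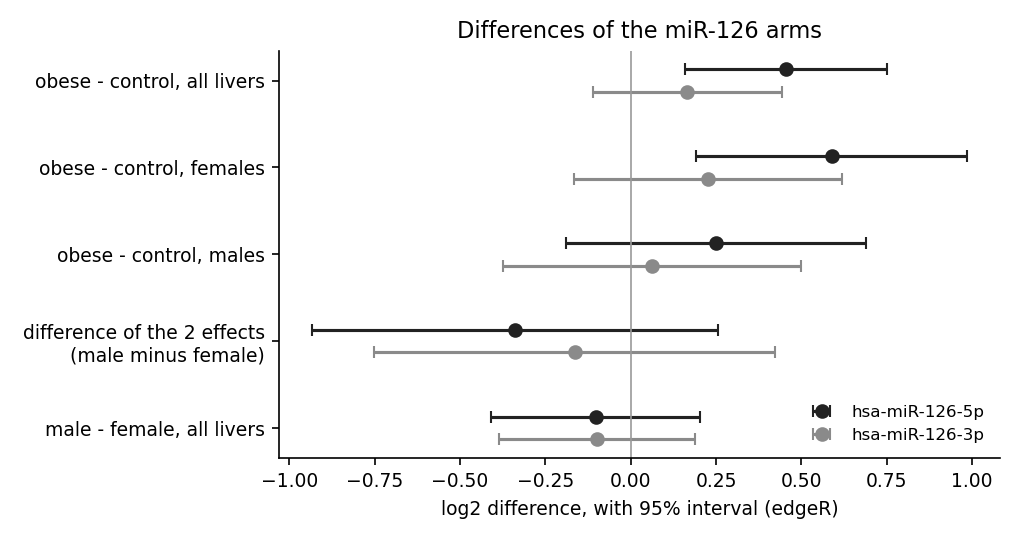
Log2 differences of miR-126-5p (black) and miR-126-3p (grey) with 95% intervals from edgeR, for the obese group against controls in all livers, in females and in males, for the male minus female difference of those effects, and for males against females. The 5p interval lies above 0 in all livers (0.16 to 0.75) and in females (0.19 to 0.99), and the other intervals, the 3p ones included, hold 0.

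With maternal group as a covariate, neither arm differed by fetal sex. The male minus female log2 difference was -0.10 for miR-126-5p (95% interval -0.41 to 0.20) and -0.10 for miR-126-3p (95% interval -0.39 to 0.19), with an edgeR adjusted p of 0.902 for each. No miRNA passed this test (0%; 22 at an unadjusted p under 0.05) or the test of the difference between the sexes' effects (0%; 14 at an unadjusted p under 0.05). The male minus female difference of the log2 arm ratio was -0.00045 (95% interval -0.35 to 0.35, limma adjusted p = 0.998), and no locus passed (0%; 1 at an unadjusted p under 0.05).

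Other miRNAs with roles in blood vessel growth were close to the background of all tested miRNAs. Of a list of 27, 23 were tested, and 0 were called higher and 1 lower, where 4.59% of all tested miRNAs were called higher and 11% in either direction. The list had 10 positive and 13 negative log2 differences, and all tested miRNAs 95 and 123. Their medians were -0.08 and -0.05. The member that fell was miR-378a-3p, which lies within the PGC-1beta gene, from 18339 ± 1753 to 12372 ± 2444 CPM (log2 -0.57, edgeR adjusted p = 0.0122). miR-101-3p, a repressor of the histone methyltransferase EZH2, had the next lowest p (log2 -0.35, edgeR adjusted p = 0.134). The most abundant members were miR-27b-3p, which regulates endothelial sprouting, at 34758 ± 6267 and 38520 ± 2888 CPM (log2 0.15), and miR-10a-5p, which restrains inflammatory signalling in endothelium, at 33173 ± 7102 and 37652 ± 4068 CPM (log2 0.18). miR-132-3p, miR-210, miR-296-5p and miR-503 had too few reads to be tested.

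Marker miRNAs of other cells were read beside these results as summed CPM without TMM scaling. The summed mesenchymal list (miR-143, miR-145, miR-199a and miR-214, 6 of 6 detected) was higher in the obese group. Controls held 74644 to 85279 CPM and the obese group 87149 to 125727 CPM, without overlap. Among single tested miRNAs, on TMM-scaled CPM, 3.21% were higher in the obese group without overlap. Nearly all of that sum was miR-143-3p, at 78579 ± 6120 and 100964 ± 16833 TMM-scaled CPM, which did not pass (log2 0.36, edgeR adjusted p = 0.0534). Of the 6 members 4 had positive and 2 negative log2 differences, the negative ones being miR-145-5p (-0.09) and miR-214-3p (-0.10). Of all the markers tested, 1 was called higher, the mesenchymal miR-145-3p (log2 1.39, edgeR adjusted p = 0.00229), 1 of 6 tested in its list. Called lower were miR-885-5p of the hepatocyte list (log2 -1.01, edgeR adjusted p = 0.00370) and miR-146a-5p of the leukocyte list (log2 -0.66, edgeR adjusted p = 0.0117). These were 1 of 6 and 1 of 4 tested. Over all tested miRNAs 4.59% were called higher and 11% in either direction. All 4 tested leukocyte members had negative log2 differences, with a median of -0.49. So did all 4 tested erythroid members (median -0.35) and the 1 tested platelet and myeloid member (-0.47). The biliary list had 3 negative and 1 positive, and the hepatocyte list 3 and 3. Over all tested miRNAs 123 log2 differences were negative and 95 positive, with a median of -0.05. The platelet and myeloid list, which bears on megakaryocytes, held 40.5 to 217.8 CPM in controls and 49.5 to 107 CPM in the obese group (2 of 2 detected). The erythroid list (4 of 4 detected) ran from 6555 to 17302 CPM and from 7017 to 14211 CPM. The leukocyte list (5 of 5 detected) ran from 1022 to 1900 CPM and from 966 to 1174 CPM. The hepatocyte list (6 of 6 detected) ran from 428254 to 498133 CPM and from 400548 to 485383 CPM, and the biliary list (5 of 5 detected) from 573 to 1556 CPM and from 721 to 1274 CPM. Striated muscle miRNAs (4 of 4 detected) held 15.3 to 65.2 CPM in controls and 21.2 to 1011 CPM in the obese group, highest in its replicate 2, which also had the highest miR-126-5p. No defining marker was at 0 in any library. The part of these cell types, of depth and of library batch in the miR-126-5p difference was not tested. The thinned value given above came from 1 random draw and evened out the number of reads only.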

How the data were processed

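Libraries were prepared with Illumina TruSeq small RNA reagents from miRNeasy extracts, per the labels' protocols. The table is named for miRDeep2, and hg18, a human build, appears in the submitters' processing notes. Its miRNA names are human although the reads are from baboon, with versions and mismatch limits not given in the sources used here. Raw read counts per mature miRNA and precursor were deposited by the authors. The authors' deposited normalised columns are a signal, CPM on the library's count total (largest gap 0.0050), and were used in 1 alternative. The 2234 distinct rows are repeated in the table (4468 rows) and were used once. Where a name had several precursors, the one with most reads was used.

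edgeR 4.0.16 (R 4.3.3) was run on the counts with TMM scaling after filterByExpr at its defaults, which left miRNAs holding at least 99.6% of each library's reads. SEs are the log2 difference over the square root of F. Arm ratios, log2((5p + 0.5)/(3p + 0.5)), were tested in limma 3.58.1. Alternatives included DESeq2 1.42.0. The tests were also run on simulated counts, and the outcome of those runs is not used as support here. The members, lists and tests were chosen with earlier results of these data known. By rule, the text names both arms, the 5 miRNAs most like each, members of the vessel list that were called, most abundant or lowest in p, called loci and neighbouring loci by ratio. Mature sequences and loci are not given here.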

Additional observations from a re-analysis of the deposited data

How the results depend on the processing

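In every alternative run, miR-126-5p was higher with maternal obesity (log2 0.40 to 0.54). Its call was lost with total counts (0.45), with fetal sex as a covariate (0.44), with the replicate block (0.41, adjusted p = 0.183) and in limma on the deposited normalised values (0.475, chosen after seeing the data). For both arms summed, the call was lost with total counts (0.41) and with the most abundant miRNA left out (0.40). It was also lost with fetal sex as a covariate (0.44) and with the replicate block (0.415, edgeR adjusted p = 0.180). Why these calls were lost was not tested. In females, miR-126-5p passed with no filter on low counts (log2 0.68), in DESeq2 (0.63) and fitted alone (0.62). miR-126-3p in males reversed with total counts (-0.088). The miR-126 ratio did not pass in any adjusted test. Unadjusted, the exact permutation test gave p = 0.0303 (0.29), and limma fell below 0.05 without control replicate 4 (p = 0.0475) or 5 (p = 0.0368). The replicate block called 15 miRNAs in place of 24. Same-numbered libraries share their number and fetal sex, so the replicate block also takes up fetal sex. Correlations of their deviations ran from -0.175 to 0.305, and not every library correlated best with its own number. With 1 library left out, calls over all miRNAs ran from 16 to 26, and 16 was reached without replicate 2 of the obese group. Log2 differences without 1 library ran from 0.37 to 0.50 for both arms, from 0.48 to 0.69 for miR-126-5p in females, from 0.14 to 0.43 for miR-126-5p and from -0.075 to 0.20 for miR-126-3p in males, from -0.44 to -0.15 for the male minus female difference of miR-126-5p, and from -0.20 to 0.0072 for miR-126-5p in males against females. The ratio in males against females ran from -0.079 to 0.090. In the control libraries the 3p arm and the ratio rest on 328 to 512 reads of miR-126-3p. How much of their spread is counting error was not tested.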

Other observations

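No library was flagged as outlying in its group, by gap over range, in the levels of either arm or in their ratio (6 sets of values checked, 0 outlying). With so few libraries per group, this check flags only a large gap. The closest was replicate 2 of the obese group, whose ratio of 8.25 reads of miR-126-5p per read of miR-126-3p lay above the other libraries of its group by 0.555 of the group's range, where 0.71 is needed.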
